A study of Mus musculus with 6 samples.

Results

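Whole blood of mice with heart failure (HF) was compared with whole blood of control mice by the mRNA probes of a microarray, using 2 of the 6 arrays of the series. Male C57BL/6J mice were brought to HF with isoproterenol, which activates β-adrenergic receptors, injected under the skin at 40 mg/kg/day over 1 week, whereas controls received saline. The 2 arrays were chosen by their labels and are called HF blood and control blood, and the other 4 arrays held heart and plasma of both groups. The methods describe an acute model in wild-type animals, with blood collected after removal of the eyeball. Each array carried mixed RNA, of 5 mice by the array paragraph of the methods, while their extraction paragraph gives volumes of blood that come to 10 mice. A pool on 1 array has no replicate, so no SD, test or p value could be given for any difference, and errors are those that the scanner software gives for the spots within an array.

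Blood RNA is a mixture of that of its cells. Immature red cells carry large amounts of globin mRNA, platelets carry transcripts of the megakaryocyte that made them, and lymphocytes, monocytes and neutrophils each add the mRNAs of their own receptors and secreted proteins. The mRNAs of neutrophil granule proteins are made mainly in the maturing precursors of the bone marrow and decline as the cells mature. The natriuretic peptides Nppa and Nppb are made by heart muscle cells under load. Heart muscle cells also make contractile proteins, although probes of some of these, such as Myh6 and Tpm1, were above background in control blood.

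The array read each probe in a single colour after ribosomal RNA had been removed and the remaining RNA copied from random primers. Levels are log2 signals, quantile normalized over the 6 arrays, so that a difference of 1 between arrays is a 2-fold change. A gene was taken as detected on an array if its probe was well above background there and carried no outlier flag. Names were held for 3470 mRNA genes through the mRNA table supplied with the paper, a shortened table in which every gene was detected on at least 1 of the 6 arrays. Of these, 2264 (65.2%) were detected in control blood and 2631 (75.8%) in HF blood. The median error within an array was 11.4% of the signal in control blood and 11.1% in HF blood. Of the negative control spots, 2.92% passed the background flag in control blood and 0.583% in HF blood. In control plasma 4.33% passed it and in HF plasma 12.4%, so that detection in HF plasma is less strict. Both arrays held the red cell marker Hba-a1 at a high level, 17.58 in control blood and 17.35 in HF blood. The HF blood array was scanned together with both heart arrays and HF plasma, and control blood together with control plasma, so that slide and HF cannot be told apart. On its slide HF blood was array 3, next to HF heart, array 2, and HF plasma, array 4.

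Among 1948 genes detected on both blood arrays, HF blood had 401 (20.6%) higher by 2-fold or more and 524 (26.9%) lower by 2-fold or more. Among all 11938 probes detected on both arrays, named or not, the shares were 21.4% and 26.8%. The log2 difference, HF minus control, of the 1948 genes had a median of -0.17, with quartiles of -1.11 and 0.79, and 54 genes were at least 8-fold higher and 71 at least 8-fold lower. A further 630 of the 3470 genes (18.2%) were above background in HF blood only and 315 (9.08%) in control blood only. Such genes have a lower bound in place of a fold, the brighter level against the dim probe's own level or the lowest detected level of the dim array, whichever is higher. Another 54 genes carried an outlier flag on 1 array and were given neither a fold nor a bound. The direction of small differences depended on the scaling. With scaling to the 75th percentile the median was -0.41 and 31.5% of the changed genes were higher, against 43.4% in the main setting, and with no scaling the median was -0.99 and the share 16%. The medians of gene lists given below can be read against the -0.17 of all genes, and their counts of higher and lower genes against 20.6% and 26.9%.

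**Figure D1:**
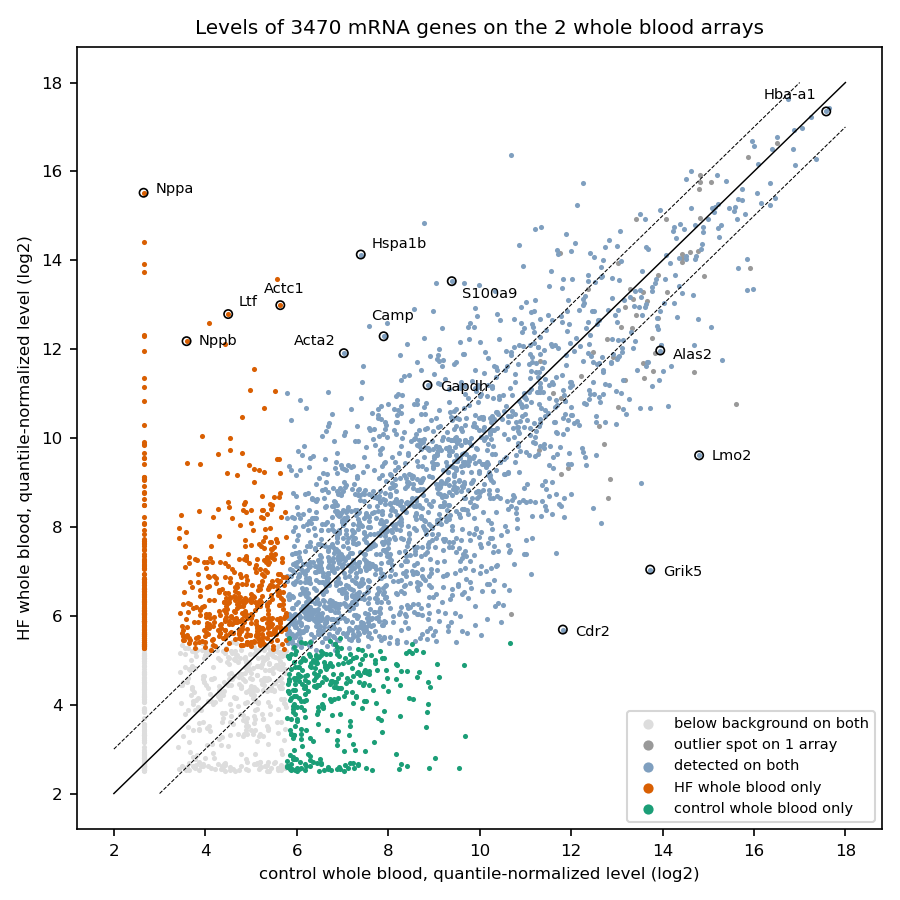
Quantile-normalized log2 levels of the 3470 mRNA genes in control blood (horizontal axis) and HF blood (vertical axis), coloured by detection. The solid line marks equal levels and the dashed lines a 2-fold difference. Hba-a1 lies near the line, Hspa1b, Camp and S100a9 lie above it, Grik5 and Lmo2 below it, and Nppa, Nppb, Ltf and Actc1 were above background in HF blood only.

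The 10 largest rises among genes detected on both arrays began with Hspa1b, an inducible heat shock protein of the HSP70 family. Its level was 7.40 in control blood and 14.13 in HF blood, a 106-fold difference (log2 6.73, error within the arrays 0.23). On the other arrays Hspa1b was at 13.49 in control heart, 13.15 in HF heart, 7.30 in control plasma and 8.80 in HF plasma, so that among the blood arrays HF blood alone reached the levels of the hearts. Tasp1, a protease that cleaves the MLL protein, went from 8.79 to 14.84 (66.4-fold) and Rtp2, a chaperone of odorant receptors, from 10.68 to 16.36 (51.1-fold). Both Tasp1, at 6.52 to 8.22, and Rtp2, at 7.39 to 10.69, were lower than in HF blood on the other 4 arrays. Sult2a7, a sulfotransferase, rose 37.7-fold, the homeobox gene Gsx1 30.8-fold and Gal3st4, a galactose sulfotransferase, 22.9-fold. The other 4 had these levels in blood and heart. Acta2, smooth muscle actin, went from 7.03 to 11.91 (29.3-fold) and was at 13.42 and 15.81 in control and HF heart. Slc25a4, the ADP/ATP carrier of muscle mitochondria, went from 6.08 to 10.86 (27.3-fold) and was at 14.36 in both hearts. Tgm2, a transglutaminase, went from 6.21 to 10.68 (22.1-fold), beside 13.37 and 14.25 in the hearts. Ms4a7, a membrane protein of macrophages, went from 7.97 to 12.58 (24.5-fold), and lay between 6.70 and 8.15 on the other 4 arrays.

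Among the falls, Grik5, a kainate receptor subunit, was at 13.73 in control blood and 7.04 in HF blood, 103-fold lower (log2 -6.69, error 0.23). Cdr2, an antigen of cerebellar degeneration, went from 11.82 to 5.69 (70.1-fold lower). Lmo2, a bridging factor of the erythroid transcription complex, went from 14.80 to 9.61 (36.6-fold lower). Cryz, a quinone reductase, was 23.8-fold lower, and Fbxw2, Nptn, Krtap4-9 and Socs2, an inhibitor of cytokine signalling, were between 18.1-fold and 19.4-fold lower. Wipf3, a partner of the WASP protein, was 22.3-fold lower at the probe that represents it (10.04 to 5.56), but another of its probes went from 6.11 to 10.40. Socs2 likewise had another probe at 6.32 on both arrays. In control plasma, on the slide of control blood, Grik5 was at 11.92, Cdr2 at 12.19 and Lmo2 at 14.74. In HF plasma, on the slide of HF blood, Grik5 was at 12.95 and Lmo2 at 13.74, while Cdr2 was below background.

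**Figure D2:**
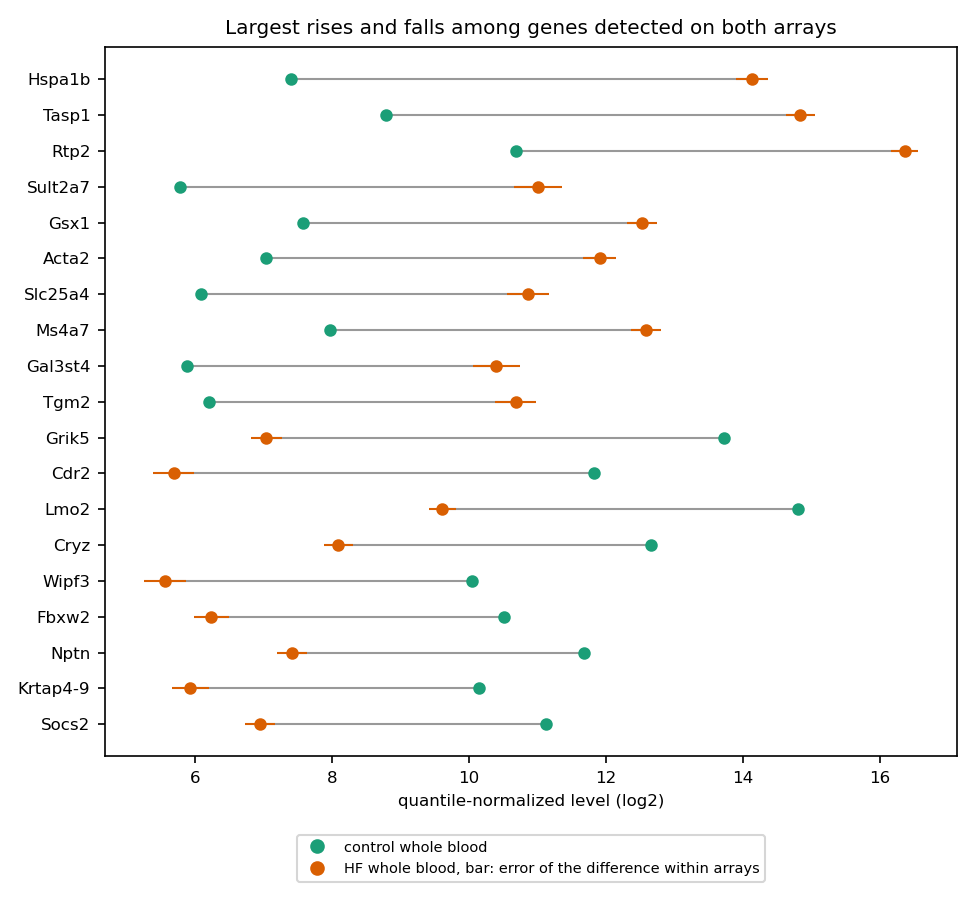
Log2 levels of the 10 largest rises (upper rows) and 9 of the 10 largest falls (lower rows) in control blood (green) and HF blood (orange). The bar on the orange point is the error of the difference within the arrays, between 0.20 and 0.35, which does not cover differences between pools of animals.

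Most granule protein transcripts of neutrophils were higher in HF blood. Of 26 neutrophil genes held, 9 were detected in control blood and 22 in HF blood, and 14 were above background in HF blood only (over all genes 18.2%). S100a9, a calcium-binding alarmin of the neutrophil cytosol, went from 9.39 to 13.53, 17.7-fold higher (log2 4.14, error 0.21). Camp, which encodes the antimicrobial peptide cathelicidin, went from 7.90 to 12.29, 21-fold higher (error 0.22), and Ifitm6 from 9.17 to 11.61, 5.46-fold higher. Other granule genes were below background in control blood. Ltf, lactoferrin, was at 4.50 in control blood, below background, and at 12.79 in HF blood, at least 129-fold higher. Lcn2, which binds bacterial siderophores, went from 4.42 to 12.12 (at least 81.1-fold). Chi3l3, now Chil3, a chitinase-like protein, went from 2.65 to 11.15 (at least 41.6-fold) and Ngp, neutrophilic granule protein, from 2.65 to 10.83 (at least 33.1-fold). G0s2, Ltb4r1, the receptor of leukotriene B4, the stefins Stfa1 and Stfa2, Pglyrp1 and the chemokine Cxcl2 were also above background in HF blood only, with bounds from 2.42-fold (Stfa1) to 16.7-fold (G0s2). Of the 8 genes detected on both arrays 4 were higher and 2 lower, and their median log2 difference was 0.77 against -0.17 over all genes, while with no scaling 3 were higher and 3 lower. The lower ones were Cybb, the large subunit of the phagocyte oxidase, from 9.88 to 8.20 (3.2-fold), and Clec4d, from 8.28 to 6.81 (2.78-fold). Prok2 (10.30 and 9.82) and Cyba (8.97 and 9.33) were within 2-fold.

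Several granule transcripts were also higher in HF plasma and HF heart. The summed linear level of the 26 neutrophil genes was 5350 and 42000 in control and HF blood, 4530 and 24700 in plasma, and 13100 and 9280 in heart, where G0s2 fell from 13.44 to 11.56. Camp was at 8.0 in control plasma and 11.89 in HF plasma, and at 5.14 in control heart and 9.60 in HF heart. Ltf was at 5.26 and 12.89 in plasma and at 4.28 and 9.97 in heart, and Lcn2 at 5.67 and 9.79 in plasma and 5.30 and 9.39 in heart. Chi3l3 was below background on both plasma arrays and went from 4.64 to 7.81 in heart. The heart pair was scanned together, unlike the blood pairs. In whole tissue RNA more cells of a type and more RNA per cell cannot be told apart, and blood cell counts were not analysed here.

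The stretches of 250 bases before the transcription start of the 5 granule genes with the largest folds or bounds are shown because these genes moved together. They come from RefSeq on GRCm38.p6, 5′ to 3′ on the strand of the gene, while the array was designed on mm9, and capitals mark matches to a C/EBP-type motif, TTNNGNAA or, for the other strand, TTNCNNAA. C/EBP factors bind such letters in granule genes.
Ltf, GRCm38.p6 chr9:111019042-111019291, plus strand: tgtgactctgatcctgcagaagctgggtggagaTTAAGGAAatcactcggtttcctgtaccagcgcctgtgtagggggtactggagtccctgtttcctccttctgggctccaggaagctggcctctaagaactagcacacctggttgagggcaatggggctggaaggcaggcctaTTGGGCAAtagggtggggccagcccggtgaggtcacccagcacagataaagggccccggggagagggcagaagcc
Lcn2, GRCm38.p6 chr2:32387740-32387989, minus strand: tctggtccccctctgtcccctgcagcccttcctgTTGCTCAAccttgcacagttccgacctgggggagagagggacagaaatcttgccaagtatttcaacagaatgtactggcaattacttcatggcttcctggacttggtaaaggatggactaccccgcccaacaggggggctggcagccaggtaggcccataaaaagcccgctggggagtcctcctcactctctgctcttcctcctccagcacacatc
Chi3l3 (Chil3), GRCm38.p6 chr3:106167565-106167814, minus strand: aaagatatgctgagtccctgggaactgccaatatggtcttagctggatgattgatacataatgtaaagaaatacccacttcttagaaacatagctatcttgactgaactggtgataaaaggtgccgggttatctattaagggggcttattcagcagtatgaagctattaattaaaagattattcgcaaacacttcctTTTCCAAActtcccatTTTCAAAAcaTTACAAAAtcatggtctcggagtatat
Ngp, GRCm38.p6 chr9:110419558-110419807, plus strand: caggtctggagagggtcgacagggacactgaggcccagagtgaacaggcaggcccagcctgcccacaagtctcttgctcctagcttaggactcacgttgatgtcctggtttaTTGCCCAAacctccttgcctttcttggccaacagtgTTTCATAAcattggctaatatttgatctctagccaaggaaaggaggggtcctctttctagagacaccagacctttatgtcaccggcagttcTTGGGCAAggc
Camp, GRCm38.p6 chr9:109849457-109849706, minus strand: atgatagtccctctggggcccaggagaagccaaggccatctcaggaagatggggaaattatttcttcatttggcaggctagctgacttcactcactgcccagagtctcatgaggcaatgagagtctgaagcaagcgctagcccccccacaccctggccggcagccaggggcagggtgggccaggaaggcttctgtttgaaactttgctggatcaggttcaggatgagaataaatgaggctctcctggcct
Matches were found in 4 of the 5, with 2 in Ltf, 1 in Lcn2, 3 in Chi3l3 and 3 in Ngp, and none in Camp. The motif is common, and 36.8% of all 32536 promoter stretches of this length held it. A match is a run of letters and was not tested as a binding site. Ltf, Ngp and Camp all lie on chromosome 9.

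Monocyte and macrophage genes went both ways. Of 16 held, 10 were detected in control blood and 15 in HF blood. Of the 10 detected on both, 5 were higher and 3 lower (median 1.09, against -0.17 over all genes), and with no scaling 3 were higher and 4 lower. Ly6c2, a surface protein of inflammatory monocytes, went from 9.95 to 12.74 (6.89-fold higher), Cfp, the complement factor properdin, from 9.34 to 11.11 (3.41-fold) and Cd68, a lysosomal protein of macrophages, from 7.32 to 10.28 (7.78-fold). Treml4 was lower, from 11.16 to 9.92 (2.35-fold), and so was another of its probes (10.86 to 8.40), while the other, at 4.96 and 7.32, was above background in HF blood only. The C1q chains C1qa, C1qb and C1qc, made by tissue macrophages, were above background in HF blood only, by at least 12.4-fold, 6.31-fold and 10.2-fold. All of the 3 chains were brighter in both hearts, between 11.85 and 13.30.

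B cell genes were lower. Of 13 held, 11 were detected in control blood and 9 in HF blood. Of the 9 detected on both, 6 were at least 2-fold lower and 1 higher, with a median log2 difference of -1.86 against -0.17 over all genes, and no scaling alternative changed this balance. Cd79b, a signalling chain of the B cell receptor, went from 10.34 to 6.21 (17.5-fold lower, error 0.26), H2-Ob, which tunes peptide loading of MHC class II, from 9.12 to 5.89 (9.39-fold) and Vpreb3 from 8.91 to 5.72 (9.13-fold). Blnk, an adaptor of the receptor, was 3.63-fold lower, and Cd37, a tetraspanin, went from 10.62 to 9.23 (2.62-fold). Cd74, the invariant chain of MHC class II, went from 9.12 to 4.63, below background, at least 15.2-fold lower, and Cxcr5, which guides B cells to follicles, from 9.03 to 2.79, at least 14.2-fold lower. Bcl11a (9.54 and 9.03) and Cd72 (7.65 and 7.14) were within 2-fold. The exception was Pou2f2, the transcription factor Oct-2, at 9.99 in control and 13.45 in HF blood (11-fold higher), while another of its probes read 11.39 and 10.79. Because of the first probe the summed linear level of the list was 8640 in control and 12800 in HF blood, against the direction of most members. Control plasma held Cd79b and Cxcr5 at 10.26 and 9.42, close to control blood.

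T cell genes were mixed. Of 14 held, 7 were above background on both arrays, of which 3 were lower and 1 higher (median -0.57, against -0.17 over all genes). Satb1, a chromatin organiser of T cells, went from 9.31 to 5.77 (11.7-fold lower) and Ccr7, the homing receptor of naive T cells, from 9.46 to 6.96 (5.65-fold lower). Ccr9 went from 12.23 to 9.77 (5.49-fold lower), but another of its probes went from 6.93 to 7.52. Cd6 was 5.56-fold higher. The chains of the T cell receptor complex Cd3e (9.30 and 9.98) and Cd247 (9.42 and 8.86) were within 2-fold, and Cd8a and Cd28 were below background on both arrays. Of 7 NK cell genes, Klrk1, the receptor NKG2D, went from 13.09 to 11.01 (4.24-fold lower), Klra8 from 8.89 to below background (at least 12.9-fold lower), and Klra2 from 10.56 to 11.52 and Klrb1a from 7.29 to 6.36, both within 2-fold.

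Globin transcripts of the main chains were within 2-fold under quantile normalization, but lower in HF blood with the other scalings. Hba-a1 was at 17.58 and 17.35, Hbb-b1 at 17.64 and 17.43, and Beta-s at 17.06 and 16.97 in control and HF blood. Hba-a2 differed by 0.57. Of the 6 globin genes, 2 were lower, the minor chain Hbq1b, from 15.64 to 13.82 (3.53-fold), and the embryonic Hbb-bh1, from 6.55 to 5.40 (2.21-fold). With scaling to the 75th percentile all of the 6 were at least 2-fold lower, as they were with no scaling, and Hba-a1 differed by -2.04. Globin genes share much of their sequence, and the probes may not tell them apart.

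Genes of red cell maturation were lower. Of 5 enzymes of haem synthesis, Alas2, the erythroid enzyme of the first step, went from 13.95 to 11.97 (3.94-fold lower, error 0.20), with another probe at 12.24 and 9.44. Urod went from 10.25 to 7.07 (9.02-fold lower). Alad, at 9.98 and 9.25, was within 2-fold, and Fech, at 11.93 and 9.33, carried an outlier flag on the control array. Of 19 enzymes and membrane proteins of the red cell, 13 were above background on both arrays, of which 7 were lower and 1 higher (median -1.08, against -0.17 over all genes). Car2, carbonic anhydrase 2, went from 14.12 to 10.71 (10.6-fold lower), Pklr, the red cell pyruvate kinase, from 11.78 to 8.46 (10-fold lower) and Darc, now Ackr1, the Duffy receptor, from 11.45 to 8.85 (6.06-fold lower). Bnip3l, which clears mitochondria from maturing red cells, was at 17.35 and 16.27 (2.12-fold lower). Slc29a1, a nucleoside carrier, was 4.37-fold higher at its main probe, and of its other probes 1 was above background in HF blood only and 1 in control blood only. Of the 5 members with an outlier flag, Bpgm, which makes 2,3-bisphosphoglycerate, read 15.92 and 13.83, Cat, catalase, 12.80 and 8.65, Mpp1 12.71 and 9.87, Fam46c 13.77 and 12.26, and Gpx1, glutathione peroxidase 1, 15.86 and 16.33. With the outlier flags ignored, 11 of the members were lower and 1 higher.

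Transcription factors of the red cell and platelet lines had a median close to that of all genes (-0.29 against -0.17). This median rests on 8 members with signal in both pools, where 3 fell and 1 rose by 2-fold or more. Lmo2 was 36.6-fold lower (another probe went from 8.31 to 5.98), Gata1 went from 11.60 to 9.58 (4.05-fold lower) and Gata2 from 9.23 to 7.23 (4.02-fold lower). Lyl1 was 4.73-fold higher. Nfe2 (10.92 and 10.69), Gfi1b (10.31 and 10.42), Cbfa2t3 (6.62 and 7.56) and Runx1 (6.27 and 5.92) were within 2-fold. Zfpm1, at 4.43 and 5.5, was above background in HF blood only. The promoter stretch of Alas2 is shown as that of an erythroid gene that was lower together with Gata1, with capitals at a GATA-type motif, AGATAA or TTATCT on the printed strand.
Alas2, GRCm38.p6 chrX:150547167-150547416, plus strand: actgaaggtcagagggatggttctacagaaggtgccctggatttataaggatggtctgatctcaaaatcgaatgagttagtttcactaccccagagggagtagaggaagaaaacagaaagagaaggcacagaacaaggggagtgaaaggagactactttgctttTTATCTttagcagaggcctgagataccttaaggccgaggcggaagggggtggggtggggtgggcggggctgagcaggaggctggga
It held 1 match, and 9.97% of all 32536 stretches did.

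All of the 13 platelet genes were detected in control blood and 8 in HF blood. Gp5, a subunit of the receptor for von Willebrand factor, went from 12.70 to 11.49 (2.31-fold lower), Mmrn1, multimerin, from 9.90 to 6.23 (12.7-fold lower), Alox12, the platelet lipoxygenase, from 9.56 to 7.02 (5.8-fold lower) and the thromboxane receptor Tbxa2r from 8.14 to 6.95 (2.27-fold lower). Gp6, the collagen receptor, was at 9.65 in control and below background in HF blood, at least 22-fold lower, and Gnaz, P2ry1, F2rl3 and Ly6g6f were above background in control blood only. Of the 8 genes detected on both, 4 were lower and 2 higher (median -0.81, against -0.17 over all genes), where the shares over all genes were 26.9% lower and 20.6% higher. Over all genes 9.08% were above background in control blood only. Gp1bb, at 8.44 and 8.01, was within 2-fold, and Pear1 and Tuba4a were 2.22-fold and 2.42-fold higher, though with no scaling neither counted as higher.

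Genes of heart muscle cells were above background in HF blood. Of 33 held, 8 were detected in control blood and 32 in HF blood, against 16 in control plasma and 14 in HF plasma. Of these, 24 were above background in HF blood only, 5 were at least 2-fold higher and 3 within 2-fold, and Trim72 was below background on both arrays. Over all genes 18.2% were above background in HF blood only, and 20.6% of those detected on both were higher. The lowest detected level was 5.78 in control and 5.19 in HF blood. Some of the 24 therefore differed little, such as Cryab (5.29 and 5.36) and Myom1 (4.79 and 5.68), and Hspb6 had a bound of 1.18-fold. Mb, also counted there, had another probe above background in control blood only (6.13 and 4.33). The summed linear level of the list was 838000 and 759000 in control and HF heart and 188000 in HF blood. It was 27100 in control blood, and 26400 and 24800 in control and HF plasma. On each of the latter arrays Myh6 alone, at 14.47 in control blood and 14.36 and 14.38 in the plasmas, made up most of the sum. Nppa, atrial natriuretic peptide, was at 2.65, below background, in control blood and at 15.52 in HF blood, at least 854-fold higher. It was below background on both plasma arrays and at 13.91 and 16.65 in control and HF heart. Nppb was at 3.59 and 12.18 in whole blood (at least 84.4-fold higher), at 2.63 and 6.29 in plasma and at 13.33 and 16.03 in heart. Actc1, cardiac actin, was at 5.64 and 12.99 in whole blood (at least 149-fold higher), below background in both plasmas and at 15.73 and 16.07 in heart. The heart forms of cytochrome c oxidase subunits, Cox6a2 and Cox8b, were at least 400-fold and 249-fold higher, and Fabp3, the fatty acid carrier of heart, at least 281-fold higher. The troponins Tnni3 and Tnnc1 were at least 92.7-fold and 72.4-fold higher. Atp2a2, the calcium pump of the sarcoplasmic reticulum, went from 6.70 to 10.34 (12.5-fold higher), and Nkx2-5, a cardiac transcription factor, from 4.81, below background, to 10.47 (at least 25.9-fold).

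Some members did not follow this. Myh6, the alpha myosin heavy chain, was at 14.47 in control and 14.71 in HF blood, above its level in the hearts (10.88 and 10.68), and with scaling to the 75th percentile it differed by -1.41. Corin, which cleaves pro-atrial natriuretic peptide, was 5.98-fold higher (9.58 to 12.16) but at 9.09 and 8.0 in the hearts, and Tnni1, at 5.87 and 9.28, was at 5.44 and 5.37 there. These 3 probes were brighter in control blood than in control heart, and the other 30 of the list were dimmer. Tpm1, tropomyosin, had 7 probes, of which 3 were higher in HF blood by a log2 difference from 3.39 to 4.92, 2 were lower, with differences of -2.36 and -2.70, 1 was above background in control blood only and 1 on neither array. Tnnt2, cardiac troponin T, had 9 probes, of which 8 were above background in HF blood only and 1, at 6.94 and 7.55, on both arrays. Across the 33 genes, levels in HF blood and HF heart had a Spearman's rho of 0.77. For HF plasma and HF heart it was -0.14, and for control blood and control heart -0.13. Of the 33, 8 were detected in control blood and 14 in HF plasma. Levels below background have little order, so the low values there cannot be set against 0.77. Over other lists given below, the rho of HF blood and HF heart was 0.7 (fibroblast), 0.66 (skeletal muscle) and 0.57 (eye). It was 0.51 over the hepatocyte and 0.27 over the endothelial genes. These correlations share the probes and their base composition, and are given as a description.

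Among the 5 largest bounds in HF blood, Nppa, Cox6a2, Fabp3 and Cox8b are heart muscle genes, and the fifth was Ctgf, now Ccn2, a matrix protein induced in fibrosis, at 5.56 and 13.58 in whole blood (at least 224-fold) and 11.68 and 16.40 in heart. In control blood only, large bounds were those of Ifit1, an interferon-induced protein (at least 38.7-fold), Gp6 (22-fold), Hira, a histone chaperone (20.5-fold), and Cd74 (15.2-fold). The promoter stretches of the natriuretic peptides are shown as those of heart genes seen in HF blood, with the GATA-type motif in capitals, since GATA4 acts on them in heart muscle.
Nppa, GRCm38.p6 chr4:148000472-148000721, plus strand: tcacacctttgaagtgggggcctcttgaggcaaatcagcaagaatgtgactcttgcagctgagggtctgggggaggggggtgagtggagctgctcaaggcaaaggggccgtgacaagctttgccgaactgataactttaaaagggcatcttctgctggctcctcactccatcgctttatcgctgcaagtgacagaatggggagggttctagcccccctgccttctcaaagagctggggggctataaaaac
Nppb, GRCm38.p6 chr4:147985650-147985899, plus strand: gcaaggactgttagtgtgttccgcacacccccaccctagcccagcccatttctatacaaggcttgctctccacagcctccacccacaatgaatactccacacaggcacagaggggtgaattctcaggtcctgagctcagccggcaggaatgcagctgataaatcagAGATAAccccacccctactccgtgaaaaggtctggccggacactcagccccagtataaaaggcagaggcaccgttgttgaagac
For AGATAA or TTATCT, Nppb held 1 match and Nppa none. The letters TGATAA, which both stretches hold, were not part of the motif searched. The counts therefore do not cover every GATA-like run of letters.

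**Figure D3:**
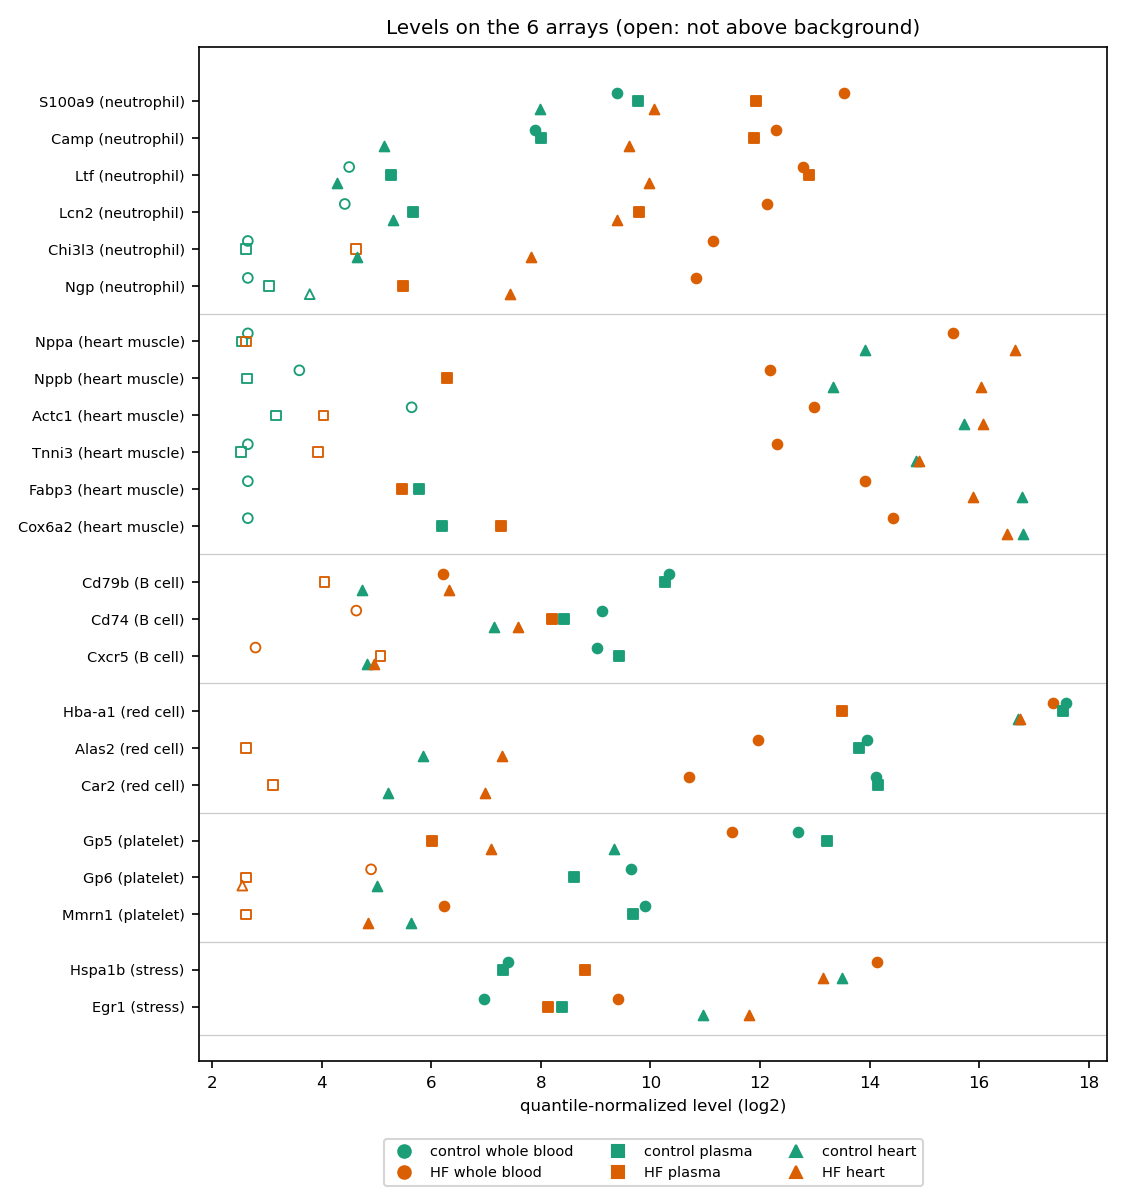
Quantile-normalized log2 levels of 23 genes on the 6 arrays, with circles for whole blood, squares for plasma and triangles for heart, green for control and orange for HF. Open symbols were not above background or carried an outlier flag. Heart muscle genes such as Nppa and Actc1 were high in both hearts and in HF blood and low in the other blood arrays, and granule genes such as Camp and Ltf were higher in HF in whole blood, plasma and heart.

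Markers of other tissues went both ways. Of 14 fibroblast and matrix genes, 5 were detected in control blood and 11 in HF blood, and of the 5 detected on both 4 were higher and none lower. Mgp, matrix Gla protein, went from 9.66 to 13.49 (14.3-fold higher) and Sparc from 7.47 to 8.75 (2.42-fold). Col3a1 and Col1a2, fibrillar collagens, as well as the proteoglycan Lum and Pcolce, an enhancer of procollagen processing, were above background in HF blood only, by at least 9.79-fold, 2.84-fold, 14.7-fold and 39.7-fold. Fap (2.31-fold higher) and Dcn (2.05-fold higher) reversed with no scaling, and Fap also with scaling to the 75th percentile, and the median of the list, 1.2 against -0.17 over all genes, became -0.22 with no scaling, where 1 member was higher and 1 lower. Of 12 endothelial genes, 5 were detected in control blood and 11 in HF blood, with bounds of at most 5.48-fold (Thbd, thrombomodulin). Eng (9.85 and 9.55) and Sox18 (7.34 and 8.32) were within 2-fold, Pecam1 was 2.2-fold lower and Cd34 3.04-fold higher. Of 13 skeletal muscle genes, 6 of the 9 detected on both were lower, such as Myl1 (11.22 to 9.60, 3.09-fold) and Tnnt3 (10.60 to 8.59, 4.02-fold), and 2 were higher, Myf5 (7-fold) and Tpm2 (6.89-fold). Both other probes of Tnnt3 were above background in HF blood only (3.95 to 5.56 and 5.07 to 6.05). Blood was drawn at the eye. Of 12 eye and lens genes 9 were detected in control and 11 in HF blood, beside 65.2% and 75.8% over all genes. In control heart all of the 12 were detected and in HF heart 10. Rom1, of the photoreceptor outer segment, went from 9.25 to 11.32 (4.22-fold higher) and Bfsp2, of the lens fibre, from 6.27 to 8.39 (4.34-fold higher), while Crx, a photoreceptor transcription factor, went from 13.94 to 12.86 (2.12-fold lower), and the lens crystallin Crygc was at 10.26 and 10.17. Crx was at 11.97 and 10.28 in the hearts as well, and 9 of the 12 probes were brighter in control blood than in control heart. With no scaling 2 of the eye genes were higher and 3 lower, against 5 and 1 in the main setting. Of 18 hepatocyte genes, 4 were higher and 3 lower of 9 detected on both, and with no scaling 1 and 3. Serpina11 went from 7.66 to 9.97 and Cyp2c29, a drug-metabolizing enzyme, from 9.37 to 5.85. The part of these markers in the other differences was not tested.

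**Figure D4:**
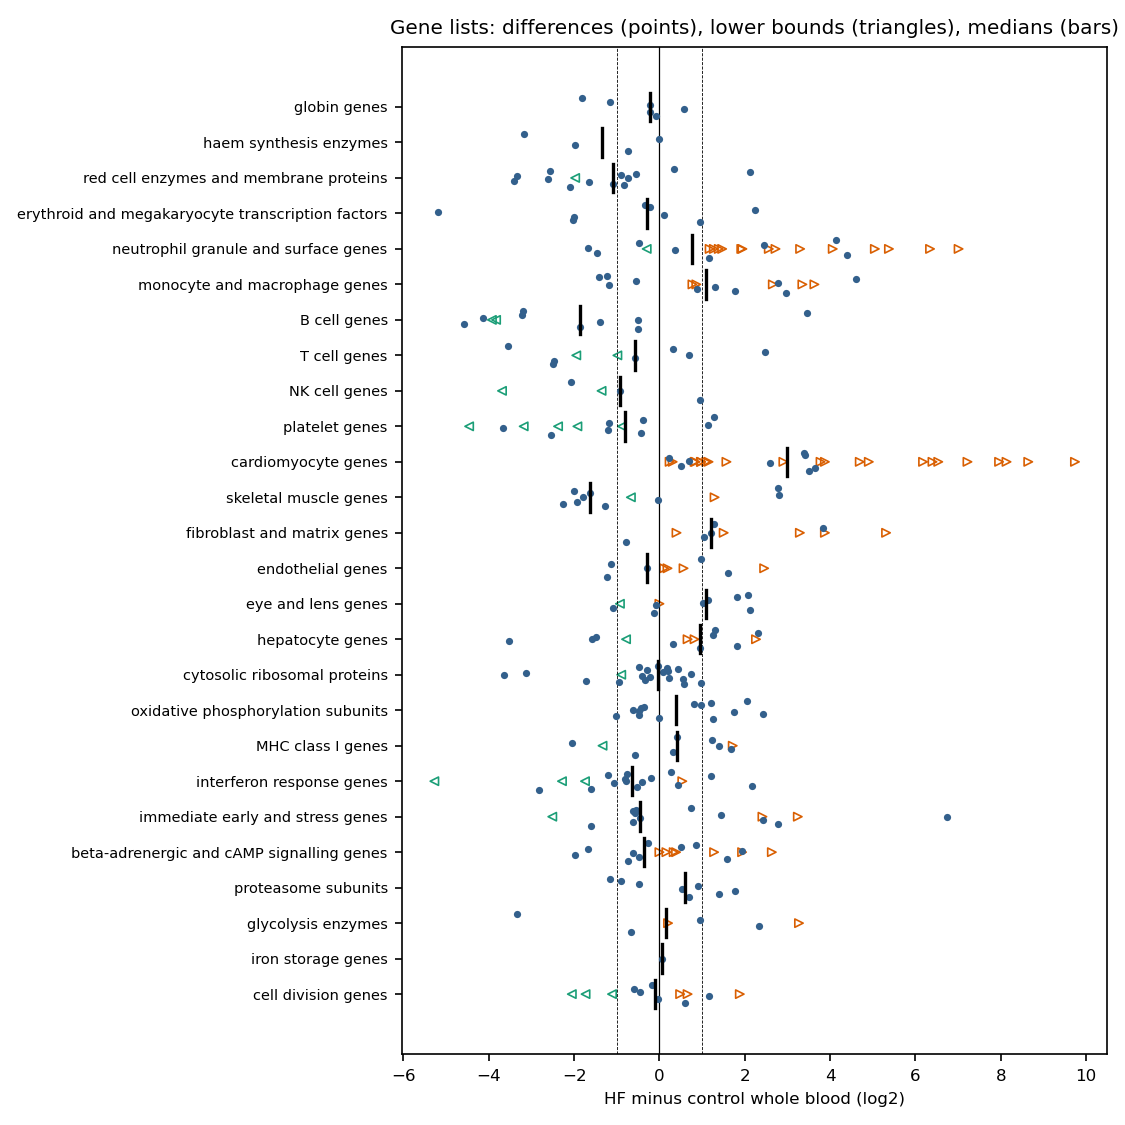
Log2 differences, HF minus control blood, of the members of 26 gene lists. Points are genes detected on both arrays, triangles are lower bounds for genes above background in HF blood only (orange, pointing right) or control blood only (green, pointing left), and black bars are medians of the points. Most heart muscle and neutrophil granule genes lie to the right of 0, and most B cell, red cell and platelet genes to the left. With no scaling the medians of the neutrophil, fibroblast, hepatocyte, oxidative phosphorylation, MHC class I, proteasome, glycolysis and iron storage lists fall below 0.

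Genes of the pathway that isoproterenol acts on were also listed. Of 19 genes of β-adrenergic and cAMP signalling, 10 were detected in control and 18 in HF blood, beside 65.2% and 75.8% over all genes. Above background in HF blood only were 7 of the 19, against 18.2% over all genes. One such gene, Adcy3, was at 5.40 and 5.94, but another of its probes, detected on both arrays, was at 5.85 and 5.62. Among the 10 detected on both, 2 were higher and 2 lower (median -0.37, against -0.17 over all genes), and with no scaling 1 was higher and 5 lower. Gnas, the stimulatory G protein, went from 11.76 to 9.79 (3.92-fold lower), with another probe at 10.73 and 8.82. Of the phosphodiesterases that degrade cAMP, Pde4b was 3.2-fold lower (8.74 to 7.06), Pde2a 3.84-fold higher (6.87 to 8.81) and Pde7a, at 9.27 and 9.77, within 2-fold. Akap1, which anchors protein kinase A, went from 13.08 to 14.66 (3-fold higher, but lower with no scaling). Rgs2, a brake on G protein signalling induced by cAMP, was above background in HF blood only (at least 6.21-fold higher), as were Ptger2 and Ptger4, receptors of prostaglandin E2. The nuclear receptor Nr4a1, an early cAMP target, was at 6.89 and 6.27.

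Of 18 immediate early and stress genes, 4 of 11 detected on both were higher and 1 lower (with no scaling 3 and 6). The median log2 difference of the 11 was -0.46, against -0.17 over all genes, of which 20.6% were higher and 26.9% lower. Egr1, an early response transcription factor, went from 6.97 to 9.40 (5.38-fold higher), Cebpb, a factor of the acute phase, from 8.17 to 10.95 (6.88-fold higher) and Junb from 10.93 to 12.38 (2.73-fold higher). Myc and Fosl2 were above background in HF blood only, by at least 9.47-fold and 5.33-fold, and Nr4a2, an orphan nuclear receptor, in control blood only (7.70 and 3.15, at least 5.7-fold lower). Jund, at 16.07 and 15.51, was within 2-fold, Gadd45a, at 13.58 and 13.28, carried an outlier flag, and Atf4 was 3.06-fold lower. The promoter stretch of Hspa1b, the gene with the largest rise, is shown with capitals at the letters of a heat shock element, GAANNTTC or TTCNNGAA.
Hspa1b, GRCm38.p6 chr17:34959239-34959488, minus strand: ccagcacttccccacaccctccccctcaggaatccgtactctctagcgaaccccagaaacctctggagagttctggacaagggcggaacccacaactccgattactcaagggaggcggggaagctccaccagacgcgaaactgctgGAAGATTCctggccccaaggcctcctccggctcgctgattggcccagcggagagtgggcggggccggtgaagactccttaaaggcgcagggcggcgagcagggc
It held 1 match, and 12.9% of all 32536 stretches did. Among other chaperones, Hspa5 was below background on both blood arrays and Hsp90ab1, at a probe printed 20 times, went from 9.71 to 11.56.

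Of 22 interferon response genes, 14 were above background on both arrays, of which 4 were lower and 2 higher (median -0.65, against -0.17 over all genes). The share lower over all genes was 26.9%, close to that of the list, and with scaling to the 75th percentile 9 were lower and 1 higher. Ifit1 went from 10.66 to 5.38, below background. Dtx3l was 7.08-fold lower, Ifi47 3.06-fold lower, and Irf9, a subunit of the interferon-activated complex, went from 8.20 to 10.37 (4.51-fold higher). Isg20 (14.23 and 14.66) and Parp10 (11.81 and 11.41) were within 2-fold. Of 9 genes of MHC class I presentation, H2-K1 was 2.62-fold higher, H2-Q9 2.35-fold higher and H2-Gs10, now H2-Q4, 3.2-fold higher, while H2-Q7 was 4.18-fold lower, and B2m was at 14.84 and 14.25. H2 genes resemble each other, and their probes may share transcripts. With scaling to the 75th percentile 2 of the class I genes were higher and 2 lower, and with no scaling none was higher.

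Most ribosomal protein genes were within 2-fold. Of 24 held, 19 were detected on both arrays and 16 of these were within 2-fold, with a median log2 difference of -0.03 against -0.17 over all genes. Rpl38 was at 15.95 and 16.69, Rps15 at 15.08 and 15.17 and Rpl26 at 14.30 and 14.51. The 3 lower ones were Rpl37a (12.5-fold), Rplp0 (8.68-fold) and Rpl17 (3.31-fold), and with scaling to the 75th percentile 7 were lower and with no scaling 15. Of 16 subunits of oxidative phosphorylation, 5 of 14 detected on both were higher and 1 lower, and with scaling to the 75th percentile 2 were higher and 3 lower. Cox4i1 went from 11.72 to 14.15 (5.4-fold higher) and Cox5b from 11.83 to 13.57 (3.34-fold higher), and Cox8a (15.58 and 15.21), Cox6a1 (15.28 and 14.79) and Atp5k (13.78 and 13.31) were within 2-fold. Both Cox4i1 and Cox5b were higher in the hearts, between 14.82 and 16.63.

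Genes used as references were among those that differed between the pools. Gapdh, a glycolytic enzyme, went from 8.86 to 11.19 (5.03-fold higher, error 0.21), and a probe of the same gene printed 20 times went from 12.94 to 15.05. Of 15 reference transcripts printed 20 times on each array, 10 were detected on both whole blood arrays, of which 4 were within 2-fold, 2 higher and 4 lower, beside 20.6% higher and 26.9% lower over all genes. Nono, an RNA-binding protein, went from 15.15 to 11.57, Tfrc, the transferrin receptor of red cell precursors, from 11.99 to 10.14, Actb from 14.37 to 13.33 and B2m from 16.46 to 15.38. Spots of one transcript on an array had an SD between 0.06 and 0.52 on the log2 scale, so these differences exceed the spread between spots, which is technical only.

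Probes of the same gene could disagree. Of 200 genes with at least 2 probes detected on both whole blood arrays, 111 had probes that differed from each other by at least 2-fold in the change, and 146 had a probe that changed at least 2-fold. Of these 146, 20 had probes that changed at least 2-fold in both directions, among them Tpm1 and Wipf3. Ube2h, a ubiquitin-conjugating enzyme, was at 10.08 and 10.42 at its main probe, at 11.07 and 6.45 at another, and above background in control blood only at the other. In contrast, both probes of Alas2 and both of Gnas moved the same way, as did the detected probes of Lmo2. Probes of a gene can read different transcripts, and which transcript each one reads was not analysed here.

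**Figure D5:**
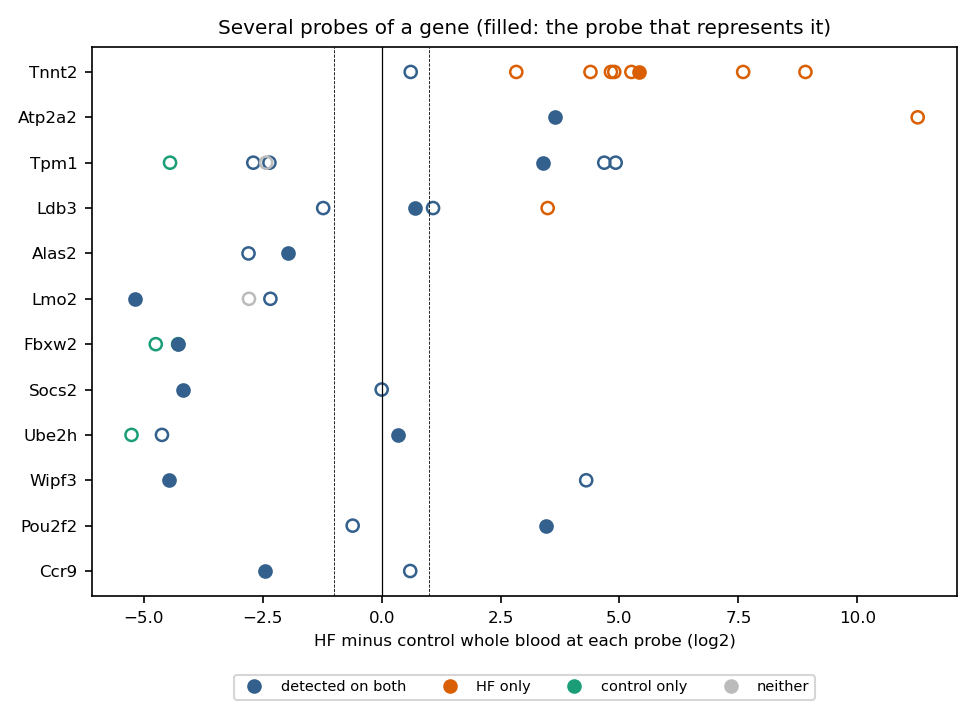
Log2 difference, HF minus control blood, at each probe of 12 genes with several probes, with filled symbols for the probe that represents the gene. Colours give detection. Probes of Alas2, Lmo2 and Fbxw2 lie on the same side of 0, and those of Tpm1, Wipf3 and Pou2f2 on both sides.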

How the data were processed

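RNA of whole blood, plasma and heart was measured on 6 arrays, 1 for each condition, of which the 2 whole blood arrays were compared. The authors read the arrays with Agilent Feature Extraction 11.0.1.1, and the deposited values are single-colour intensity per spot, background-subtracted but with no scaling from array to array. The series table carried the same intensities, with 0 spots that differed.

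Control spots were left out, log2 intensities were averaged over the 61194 spots of 59729 probes, and quantile normalization was done over the 6 arrays. Genes were those of the 4093 mRNA probes held, named as in the paper's table. Accessions of 3977 probes were found in RefSeq, and 375 of these carry another symbol there. A gene was represented by its probe with the highest mean level over the 6 arrays. A gene was called changed if detected on both whole blood arrays and at least 2-fold different. The fold is that of the study's methods, and the detection filter is stricter than the Present or Marginal flags used there. The members and all 27 gene lists were chosen with earlier results of these data known. Named are the 10 largest rises and falls, the 5 largest bounds in each direction, the 4 brightest members of a list and others where a list is described, and Hba-a1, Camp, Actc1, Nppb and Gapdh. Symbols of clones and predicted genes were not named, and some genes that the rule takes in are not reported here.

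With 1 array a side no test was possible, and the number of arrays limits the precision. The scripts were tested on a simulated copy of 1 array, which says nothing on false calls between pools or slides. Alternatives covered the scaling, a normexp background correction (offset 50, on median spot intensities, as mean intensities were not used here), detection flags, saturation, the choice of probe and fold thresholds of 1.5 and 4. Ignoring outlier flags was an alternative chosen after seeing the data. Versions were limma 3.58.1 in R 4.3.3, and in Python 3.11.15 pandas 2.3.3, numpy 2.4.6, matplotlib 3.10.9 and scipy 1.17.1.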

Additional observations from a re-analysis of the deposited data

Results flagged for a closer look

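The following genes, of those named by the rule, changed at least 2-fold in whole blood and at least 2-fold the other way in heart or plasma, on arrays where they were detected. With 1 array for each condition the difference between tissues was not tested, and the blood pairs lay on different slides.

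Against heart, log2 differences (HF minus control) were as follows. Values were -1.98 in whole blood and 1.46 in heart for Alas2 and -1.08 and 1.57 for Bnip3l. Other red cell genes were lower in both, such as Pklr at -3.33 and -1.56 and Lmo2 at -5.19 and -1.50. The B cell gene Cd79b was at -4.13 in whole blood and 1.6 in heart. Myl1 was at -1.63 and 2.03, Tnnt3 at -2.01 and 2.38 at its main probe and Pecam1 at -1.14 and 1.81. The opposite pattern, higher in whole blood and lower in heart, was seen for Ly6c2 at 2.79 and -2.08, Gapdh at 2.33 and -1.07 (but 2.11 and -0.05 at the probe printed 20 times), Corin at 2.58 and -1.09, Apoc4 at 1.81 and -1.76, Ugt2b36 at 1.31 and -1.93 and Dct at 1.02 and -1.39.

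Against plasma, Acta2 was at 4.87 in whole blood and -1.16 in plasma, Myf5 at 2.81 and -4.19, Akap1 at 1.58 and -5.42, H2-K1 at 1.39 and -1.40, Foxm1 at 1.17 and -4.25 and Dcn at 1.04 and -3.25. Grik5 was at -6.69 in whole blood and 1.03 in plasma, and Cd37 at -1.39 and 1.37. HF plasma stood apart from the other blood arrays in its red cell transcripts, with Hba-a1 at 13.49 there and 17.53 in control plasma.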

How the results depend on the processing

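Counts of higher and lower genes, 401 and 524, became 185 and 973 with no scaling, 756 and 838 with a weaker detection flag, 1000 and 985 with no detection filter, and 168 and 222 at a fold threshold of 4. Genes above background on 1 array only, 630 in HF and 315 in control whole blood, became 313 and 135 with the weaker flag. Of the 27 lists, 11 had more members higher and 13 more lower. With no scaling these numbers were 1 and 24, and with scaling to the 75th percentile 6 lists had more members higher. The other 35 values of these counts stayed within 1.5 times. No gene of the 401 or 524 was called in the opposite direction under the scalings, normexp or detection settings, and with the median over all probes of a gene 2 of the 401 were called lower.

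Among named genes and lists called at least 2-fold in the main setting, Fap became -0.15 with scaling to the 75th percentile and -0.73 with no scaling, and Ugt2b36 -0.14 and -0.72. With no scaling, Dcn became -0.22, Dct -0.16 and Akap1 -0.50, and the median of the fibroblast and matrix genes -0.22. Tpm1 became -2.36 as a median over its probes. Counting also genes within 2-fold, 10 named genes changed sign with scaling to the 75th percentile and 18 with no scaling, among them Hba-a2 (0.57 to -1.06 and -1.64), Myh6 (0.23 to -1.41 and -1.99), Isg20 (0.44 to -1.20 and -1.78) and Rpl38 (0.73 to -0.81 and -1.39), as did the medians of 3 and 8 lists. Of the named genes' other values under the alternatives, 902 moved by less than the error within the arrays and 290 by more. That total holds settings that could hardly move a value, such as leaving out saturated spots, with 122 values unmoved. With scaling to the 75th percentile 32 values moved by less than the error and 88 by more. With no scaling these numbers were 4 and 113.

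Spike-in centring was not run, as 2 of 22 spike-in probes were above background on both whole blood arrays. No paired analysis was possible because each condition had 1 array. On the control whole blood array 30411 spots shared 1 lowest value, and on the HF plasma array 25588 did. Dim levels on these arrays have no order. Leaving out replicates was not possible either. Slide and heart failure could not be told apart under any alternative.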

Other observations

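Other gene groups showed no common direction in whole blood. Of 18 cell division genes, 6 were detected on both arrays, of which 1, Foxm1, was higher (8.99 to 10.16) and none lower. Pttg1 was at 15.57 and 15.12 and Spc25 at 11.33 and 11.15 in control and HF whole blood. Of 10 proteasome subunits, 2 of 8 detected on both were higher, Psmc1 (3.42-fold) and Psmb4 (2.64-fold), and 1 was lower, and Psmd4 was at 14.51 and 14.04. The ferritin gene Ftl2 was at 16.87 and 16.93. Among glycolytic enzymes, Pgk1 was at 11.18 and 12.13, within 2-fold, while Ldhb, the heart form of lactate dehydrogenase, was above background in HF whole blood only, at least 9.65-fold higher, and was at 12.91 and 12.71 in control and HF heart.

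Of 76 olfactory and vomeronasal receptors held, 44 were detected in control and 63 in HF whole blood, and 75 and 38 in the hearts. Of the 43 detected on both whole blood arrays 9 were higher and 14 lower (median -0.18 against -0.17 over all genes), and with no scaling 4 and 19. With the weaker detection flag 25 were higher and 14 lower. Vmn1r173 went from 13.63 to 11.61, Olfr314 from 13.11 to 11.93, and Olfr1465 was at 12.59 and 12.65. Receptor genes of these families resemble each other, and their probes may not tell them apart.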
